A study of Mus musculus with 16 samples.

Results

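Transcripts of 7 genes of plasminogen activation and its neighbours were followed in mouse intervertebral discs: Plau, Plat, Plaur, F3, Serpine2, Serpinb2 and Serpina3n. They were taken by gene symbol from a table of 49315 genes, and each symbol matched 1 row. Gene expression had been measured by bulk RNA sequencing in 16 mice, with tissue from 4 tail discs pooled per mouse, so each library stands for 1 animal. The groups were 3 wild-type mice with intact discs, 4 wild-type mice with injured discs, 4 Adam8EQ mutants with intact discs and 5 Adam8EQ mutants with injured discs. The labels give neither the age of the mice nor the kind of injury, the time after it or the nature of the EQ allele. Adam8 is a gene for a metalloprotease anchored in the cell membrane. The series title sets the mutant against DBA, an inbred mouse strain. Levels are in TPM, a unit that divides by gene length and by the sum over the library, so that levels of different genes can be compared.

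Plasminogen is an inactive precursor of plasmin, a protease that dissolves fibrin and helps to break down extracellular matrix. Plau encodes the urokinase-type and Plat the tissue-type plasminogen activator, and Plaur encodes the receptor that holds urokinase at the cell surface. Serpins are protease inhibitors that trap their target in a covalent complex. Serpine2 (protease nexin 1) and Serpinb2 (plasminogen activator inhibitor 2) act on plasminogen activators, whereas Serpina3n is a secreted inhibitor of other serine proteases and an acute-phase gene. F3 encodes tissue factor, the cell-surface protein that starts coagulation and so the deposition of the fibrin that plasmin removes.

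The 3 promoters below belong to genes whose levels moved with injury, and they are shown because their motifs differ. RefSeq promoters on GRCm38.p6 were found for 5 of the 7 genes, and those of Plau and Plat were not among them. Each sequence holds the 250 bases before the start site on the plus strand, 5′ to 3′, with matches to a searched motif in capitals. Plaur is at chr7:24462233-24462482, F3 at chr3:121723287-121723536 and Serpina3n at chr12:104406458-104406707.
Plaur: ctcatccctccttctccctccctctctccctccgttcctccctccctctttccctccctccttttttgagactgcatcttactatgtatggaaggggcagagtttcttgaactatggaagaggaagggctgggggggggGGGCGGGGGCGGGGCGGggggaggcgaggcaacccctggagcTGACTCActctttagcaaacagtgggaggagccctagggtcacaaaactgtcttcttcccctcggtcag
F3: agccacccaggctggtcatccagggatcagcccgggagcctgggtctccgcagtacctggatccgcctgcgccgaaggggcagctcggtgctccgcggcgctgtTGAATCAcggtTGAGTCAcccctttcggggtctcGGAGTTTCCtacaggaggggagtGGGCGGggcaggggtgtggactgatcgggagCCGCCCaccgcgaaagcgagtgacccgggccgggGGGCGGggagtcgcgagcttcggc
Serpina3n: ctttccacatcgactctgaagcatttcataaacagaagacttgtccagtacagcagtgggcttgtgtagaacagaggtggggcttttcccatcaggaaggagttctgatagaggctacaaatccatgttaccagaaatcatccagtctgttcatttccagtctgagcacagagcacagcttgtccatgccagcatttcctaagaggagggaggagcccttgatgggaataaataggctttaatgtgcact
The motifs, searched on both strands, were AP-1 (TGANTCA), NF-kappaB (GGANTTTCC), STAT (TTCNNNGAA), the TATA box (TATAAA) and Sp1 (GGGCGG). Among 32536 promoter windows of the same length, 6.73% held the AP-1 motif, 1.07% the NF-kappaB motif, 7.04% the STAT motif, 12.3% the TATA box and 33.0% the Sp1 motif. Counted back from the start site, the Plaur window held an AP-1 match at -69 to -63 and 3 Sp1 matches between -111 and -95, the last pair of which share 1 base. The F3 window held 2 AP-1 matches, at -146 to -140 and -135 to -129, an NF-kappaB match at -112 to -104 and 3 Sp1 matches. The Serpina3n window held none of the 5 motifs. Matches were not confined to genes that moved with injury. The window of Serpine2, not printed, held Sp1 matches between -161 and -8. For Serpinb2, also not printed and not tested for injury, there was an AP-1 match at -94 to -88 and a TATA box at -29 to -24. A later Serpinb2 start site added a STAT match at -77 to -69. A match is a description of the letters and not evidence of binding.

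Reads implied by the TPM values numbered 10195458 to 24832134 per library, and 20085 to 21919 genes reached 1 TPM in a library. Disc cartilage markers such as Acan and Col2a1 summed to 24708 to 33749 TPM in intact discs, and 8 of 8 of them were detected widely enough to be tested. In injured discs they summed to 6160 to 24289.5 TPM. With injury in mutants 2 of the 8 passed as lower and 1 as higher (limma, adjusted p under 0.05). In the wild type 0 passed. The sum therefore does not stand for each marker. Markers of notochordal cells of the nucleus pulposus went from 3329 to 6431 TPM in intact to 553 to 5263 TPM in injured discs, and fibroblast markers from 1942 to 4105 TPM to 3199 to 11387 TPM. Endothelial markers reached at most 29.6 TPM in intact and 246 TPM in injured discs, and platelet markers 21.6 and 422 TPM. Macrophage markers summed to 163 to 267 TPM in intact discs. In injured wild-type mice 1 to 4 that sum was 278, 433, 4013 and 2615 TPM, and in injured mutants it was 895 to 8270 TPM. Injured wild-type mice 1 and 2 thus lay close to the intact range and injured mutant mouse 2 at the top. A gene was tested if it reached 1 TPM in 3 or more libraries, which 24188 genes did, among them 6 of the 7 described here. Serpinb2 did not.

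Plau, Plaur and F3 were higher in injured than in intact discs, whereas Plat and Serpine2 showed no difference larger than the spread between mice. Averaged over genotypes, 4 of the 6 tested genes passed the threshold (limma, adjusted p under 0.05) and all 4 were higher: Plau, Plaur, F3 and Serpina3n. Of all tested genes, 32.5% passed that threshold and 15.2% passed it as higher. In mutants alone 3 of 6 passed, Plau, Plaur and F3, against 30.8% of all genes in either direction and 13.1% higher. In the wild type alone 1 of 6 passed, F3, against 0.116% of all genes in either direction and 0.107% higher. Injured wild-type mice differed widely among themselves, and without injured wild-type mouse 1 the number of genes called in the wild type rose from 28 to 452, with 3 of the 6 among them. Leaving out any other wild-type mouse gave 2 to 12 called genes, with 0 of the 6 among them.

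**Figure D1:**
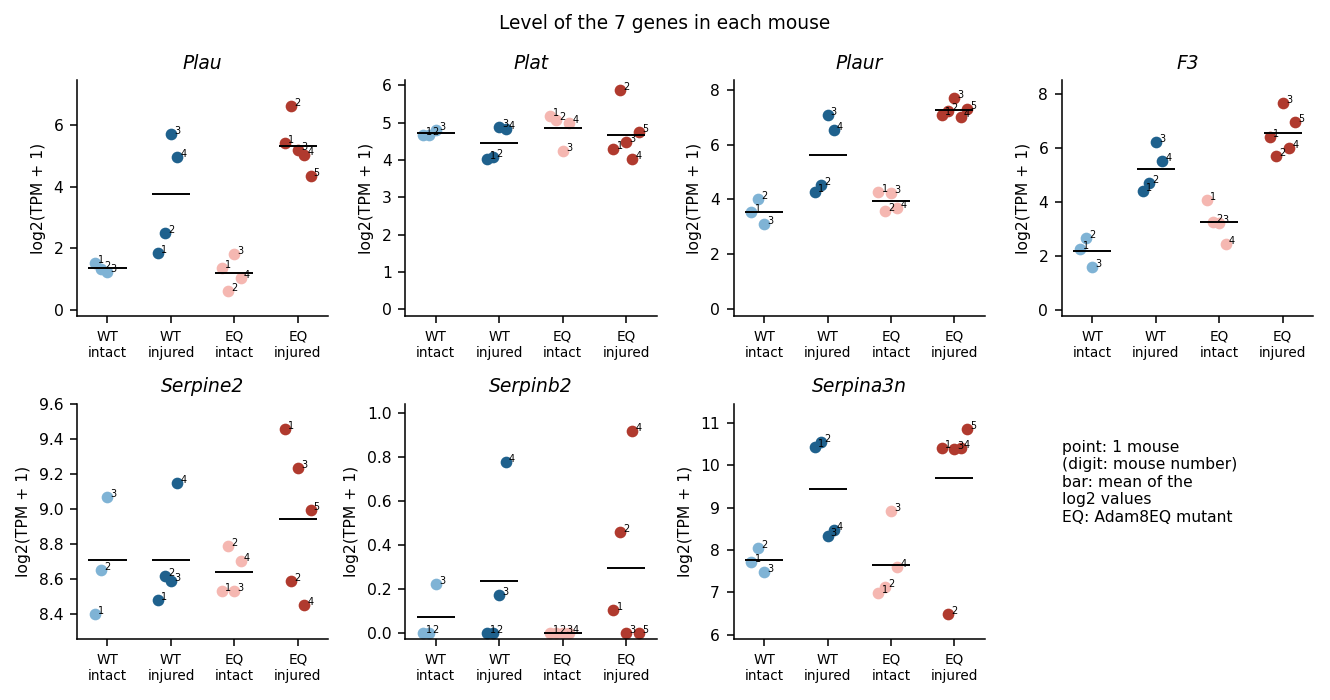
Level of the 7 genes in each mouse as log2(TPM + 1), by genotype (WT, wild type; EQ, Adam8EQ mutant) and treatment; points are mice labelled by number and bars are means of the log2 values. Plau and F3 separate all 9 injured from all 7 intact mice, and injured wild-type mice 1 and 2 sit low for Plau and Plaur. Among the injured mutants mouse 2 is highest for Plau and Plat and lowest for Serpina3n.

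Plau (ENSMUSG00000021822, GRCm38 chromosome 14, 20836660 to 20843385, plus strand) was low in intact discs, at 1.88, 1.48 and 1.32 TPM in the 3 wild-type mice and 1.55, 0.537, 2.52 and 1.058 TPM in the 4 mutants. In injured wild-type discs it was 2.60, 4.58, 51.9 and 30.4 TPM in mice 1 to 4, and in injured mutant discs 42.1, 98.9, 35.5, 32.0 and 19.3 TPM in mice 1 to 5. All 9 injured values exceeded all 7 intact values, although wild-type mouse 1 at 2.60 TPM only just cleared the highest intact value of 2.52. Only 4.03 to 20.2 implied reads of Plau stood behind the intact values, so its intact level carries a large counting error. In mutants the mean was 32.1-fold higher after injury, and the difference of mean log2(TPM + 1) was 4.12 ± 0.73 (SE, adjusted p in limma 0.000972). In the wild type the mean was 14.3-fold higher and the log2 difference 2.41 ± 0.83 (SE, adjusted p in limma 0.166), short of the threshold. Without injured wild-type mouse 1 it did pass, with a log2 difference of 3.04 (limma adjusted p 0.0426). That was 1 of 18 alternatives, and the other 17 did not pass. Without injured wild-type mouse 3 or 4 the log2 difference was 1.75 or 2.00 (limma adjusted p 0.417 and 0.344). The log2 scale with 1 TPM added understates the change of a gene this low.

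Plat (ENSMUSG00000031538, chromosome 8, 22757727 to 22782844, plus strand), the other activator, was the higher of the pair in every intact disc. It measured 24.4, 24.5 and 27.2 TPM in intact wild-type discs and 35.2, 32.7, 17.9 and 30.6 TPM in intact mutants. After injury it was 15.3, 15.96, 28.5 and 27.6 TPM in wild-type mice 1 to 4 and 18.5, 58.0, 21.3, 15.3 and 25.8 TPM in mutants 1 to 5. The groups overlapped, and only mutant mouse 2 lay above the intact range. The log2 difference was -0.26 ± 0.40 in the wild type (SE, adjusted p in limma 0.740) and -0.18 ± 0.35 in mutants (SE, adjusted p in limma 0.702).

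Compared within each mouse, the balance of the activator transcripts differed between intact and injured discs. The ratio of Plau to Plat was 0.0488 to 0.0773 in intact wild-type and 0.0164 to 0.141 in intact mutant discs. It was 0.170, 0.287, 1.82 and 1.10 in injured wild-type mice 1 to 4 and 0.746 to 2.27 in injured mutants. Every injured mouse exceeded every intact mouse, though the lowest injured ratio, 0.170, lay near the highest intact ratio, 0.141. Plau alone also separated these mice and Plat did not differ detectably, so the ratio largely restates the Plau values. The share of other gene pairs that separate so was not counted. Plau was the more abundant transcript in 6 of 9 injured discs and in 0 of 7 intact discs. Their summed level was 20.4 to 36.8 TPM in intact discs of either genotype, 17.9 to 80.5 TPM in injured wild-type discs and 45.1 to 156.9 TPM in injured mutant discs.

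**Figure D2:**
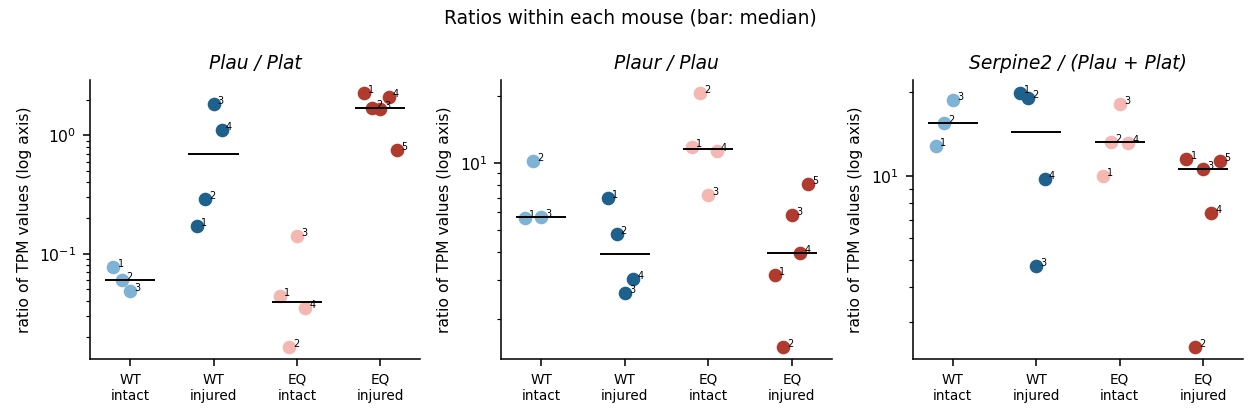
Ratios of TPM values within each mouse on log axes, with bars at the group median: Plau to Plat, Plaur to Plau, and Serpine2 to the sum of both activators. Plau to Plat is at most 0.141 in intact mice and at least 0.170 in injured mice, whereas the ratio of Serpine2 to the activators overlaps between groups and is lowest, at 2.45, in injured mutant mouse 2.

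Plaur (ENSMUSG00000046223, chromosome 7, 24462484 to 24475968, plus strand), the urokinase receptor, was already present in intact discs at 10.6, 15.0 and 7.56 TPM in the wild type and 18.4, 11.1, 18.1 and 11.96 TPM in mutants. Injured wild-type mice 1 to 4 had 18.1, 22.1, 135 and 92.3 TPM, and injured mutants 1 to 5 had 132, 149, 207, 126 and 154 TPM. Within each genotype the injured and intact values did not overlap. Groups of 3 to 5 mice separate easily, and the share of all genes that did so within both genotypes was not counted. Across genotypes injured wild-type mouse 1, at 18.10 TPM, fell below the highest intact mutant at 18.39. The mean was 10.3-fold higher after injury in mutants, with a log2 difference of 3.30 ± 0.52 (SE, adjusted p in limma 0.000562), and 6.04-fold higher in the wild type, with 2.06 ± 0.59 (SE, adjusted p in limma 0.131). Without injured wild-type mouse 1 the wild-type difference was 2.51 (limma adjusted p 0.0323). The other 17 of 18 alternatives did not pass, among them 1.56 without injured wild-type mouse 3 (limma adjusted p 0.294). Plaur exceeded Plau in every mouse, by 5.65 to 20.6 times in intact discs and by 1.503 to 8.01 times in injured ones.

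F3 (ENSMUSG00000028128, chromosome 3, 121723537 to 121735048, plus strand), tissue factor, was higher after injury in either genotype. Intact levels were 3.76, 5.35 and 2.00 TPM in the wild type and 15.8, 8.46, 8.30 and 4.41 TPM in mutants. Injured levels were 20.01, 25.1, 72.8 and 44.8 TPM in wild-type mice 1 to 4 and 82.7, 50.9, 201 and 61.9 TPM in mutants 1 to 4, with 124 TPM in mutant 5. The lowest injured value, 20.01, lay above the highest intact value, 15.8. Means were 10.99-fold higher with injury in the wild type and 11.2-fold in mutants. The log2 differences were 3.04 ± 0.56 (SE, adjusted p in limma 0.0414) and 3.29 ± 0.49 (SE, adjusted p in limma 0.000476). Complete separation of the 9 injured from the 7 intact mice, shown by Plau and F3 among the 6 genes, occurred for 3.01% of all tested genes. The wild-type call for F3 was lost in 12 of 18 alternatives, while the difference itself stayed at 2.70 or above. Leaving out intact wild-type mouse 1, 2 or 3 gave limma adjusted p-values of 0.142, 0.118 and 0.148, and leaving out injured wild-type mouse 2, 3 or 4 gave 0.0698, 0.102 and 0.120.

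Serpine2 (ENSMUSG00000026249, chromosome 1, 79794197 to 79861180, minus strand) had the highest mean of the 7 genes in intact discs, 410.8 TPM over the 7 mice, higher than 99.1% of tested genes. The values were 338, 402 and 538 TPM in intact wild-type, 356, 393, 385 and 567 TPM in injured wild-type, 369, 442, 370.2 and 416 TPM in intact mutant, and 703, 384, 603, 349 and 509.7 TPM in injured mutant discs. All groups overlapped. The log2 difference with injury was 0.00073 ± 0.25 in the wild type (SE, adjusted p in limma 1) and 0.31 ± 0.22 in mutants (SE, adjusted p in limma 0.283), and the sign of the wild-type value turned under median-of-ratios scaling, at -0.0091. Serpine2 exceeded the summed activators in every mouse, by 10.1 to 18.9 times in intact discs, 4.79 to 19.9 times in injured wild-type discs and 2.45 to 11.6 times in injured mutant discs.

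Serpinb2 (ENSMUSG00000062345, chromosome 1, 107511423 to 107535478, plus strand) was at the limit of detection. It was listed at 0 in 10 of 16 libraries and reached 0.887 TPM at most, which is 7 implied reads, in injured mutant mouse 4. The next values were 0.714 TPM in injured wild-type mouse 4 and 0.376 TPM in injured mutant mouse 2. It was above 0 in 5 of 9 injured and 1 of 7 intact libraries, at 1 to 7 implied reads each, and no difference between groups was tested.

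Serpina3n (ENSMUSG00000021091, chromosome 12, 104406729 to 104414329, plus strand) had the highest mean of the 7 genes after injury, 1060 TPM over the 9 mice, with a wide spread within groups. Intact levels were 210.2, 265 and 177 TPM in the wild type and 126, 137, 483 and 193 TPM in mutants. Injured wild-type mice 1 and 2 had 1380.1 and 1499 TPM, and mice 3 and 4 had 319.9 and 355 TPM. Injured mutants had 1350.5, 88.9, 1339, 1362 and 1844 TPM in mice 1 to 5. The wild-type mice with little Plau and Plaur were therefore those with the most Serpina3n, and injured mutant mouse 2, with the most Plau, had less Serpina3n than any intact mouse. The log2 difference averaged over genotypes was 1.87 ± 0.66 (SE, adjusted p in limma 0.0257). That call was lost without intact wild-type mouse 1 (limma adjusted p 0.0522), intact wild-type mouse 3 (limma adjusted p 0.0565) or intact mutant mouse 2 (limma adjusted p 0.0501), and also with the replicate block (limma adjusted p 0.0712) and with only the mutants whose names begin with A8 (limma adjusted p 0.137, log2 difference 1.55).

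Within a genotype the Serpina3n difference did not pass: it was 1.69 ± 0.99 in the wild type (SE, adjusted p in limma 0.339) and 2.05 ± 0.87 in mutants (SE, adjusted p in limma 0.0589). In mutants it was 2.86 without injured mouse 2 (limma adjusted p 0.00204) and 2.48 without intact mouse 3 (limma adjusted p 0.0412). Median-of-ratios scaling, limma's sample weights and the name prefix as a covariate also brought it under the threshold (limma adjusted p 0.0464, 0.00497 and 0.0461). Serpina3n has closely related copies in the mouse, so reads may have been split among them.

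The mutant libraries carry names that begin with A8 (intact and injured mice 1 and 2) or with M (the other 5), and the labels do not say what this marks. Within the A8 libraries, 2 against 2, the difference in mean log2(TPM + 1) was 5.05 for Plau, 3.21 for Plaur, 2.38 for F3 and 1.40 for Serpina3n. Within the M libraries, 3 injured against 2 intact, it was 3.43 for Plau, 3.35 for Plaur, 4.04 for F3 and 2.29 for Serpina3n. The direction was the same in both sets, and Plau, Plaur and F3 had no overlap of injured and intact values in either. Sets of 2 or 3 libraries separate easily, and the share of all genes that did so was not counted. With only the M mutants in the fit Plau no longer passed (limma adjusted p 0.0755).

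**Figure D3:**
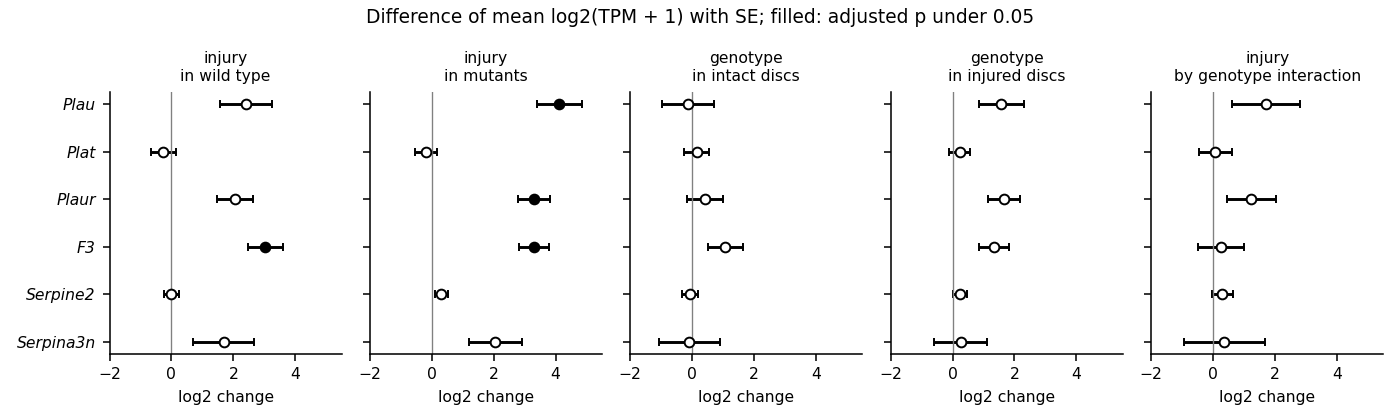
Difference in mean log2(TPM + 1) with its standard error for the 6 tested genes in 5 comparisons; filled points have a limma adjusted p under 0.05. Filled points are F3 for injury in the wild type and Plau, Plaur and F3 for injury in mutants, and none of the genotype or interaction values is filled.

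Whether the mutation altered these genes was addressed within intact discs, within injured discs and as the difference between the injury effects. In intact discs 0 of 6 genes passed in limma, against 0.0165% of all genes. At an unadjusted p under 0.05 there were 0 of 6, against 915 of 24188 genes. The largest value was that of F3, 1.08 ± 0.56 higher in mutants on the log2 scale (SE, adjusted p in limma 1), with mutant values of 4.41 to 15.8 TPM overlapping the wild-type values of 2.00 to 5.35. In injured discs 0 of 6 passed in limma, against 0.918% of all genes, with 3 of 6 (Plau, Plaur and F3) at an unadjusted p under 0.05. Of all 24188 tested genes 4912 had such a p there. On the implied reads voom called 0 of 6 in either case. The mutant means were 2.04 times the wild-type mean for Plau, 2.30 times for Plaur and 2.56 times for F3, and all groups overlapped. On the log2 scale the differences were 1.57 ± 0.73 for Plau, 1.65 ± 0.52 for Plaur and 1.33 ± 0.49 for F3 (SE, adjusted p in limma 0.203, 0.0879 and 0.124). Without injured wild-type mouse 3, the wild-type mouse highest for all 3 genes, they were 2.23, 2.14 and 1.67 and passed (limma adjusted p 0.0369, 0.0110 and 0.0367), while the number called over all genes rose from 222 to 2253. Taking out the highest wild-type mouse can only widen these differences. Without injured wild-type mouse 1 they were 0.94 for Plau and 1.20 for Plaur (limma adjusted p 0.534 and 0.278). Without injured wild-type mouse 2 they were 1.15 and 1.29 (limma adjusted p 0.502 and 0.283). Plaur also passed with limma's sample weights (limma adjusted p 0.0324).

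The injury effects themselves did not differ detectably between genotypes. For the interaction 0 of 6 genes passed, and 0.0% of all genes did. At an unadjusted p under 0.05 limma counted 1979 of 24188 genes, none of the 6 among them, and voom on the implied reads also called 0 genes after adjustment. The interaction was 1.72 ± 1.11 for Plau and 1.24 ± 0.79 for Plaur (SE, adjusted p in limma 0.686 and 0.679), positive when the rise was larger in mutants, against 0.26 ± 0.74 for F3 (SE, adjusted p in limma 0.939). With errors of this size a p above the threshold does not show that the effects were alike. All wild-type library names begin with D, so the naming, any strain difference and the genotype cannot be told apart.

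Among the 9 injured mice the members did not move as 1 block. Over 15 pairs of the 6 tested genes, Plaur and F3 went together in log2(TPM + 1), with Pearson's r 0.880 (exact permutation p 0.000154, adjusted 0.00232) and Spearman's rho 0.883 (exact permutation p 0.00308, adjusted 0.0461). Without the 2 mice farthest from the median of Plaur r was 0.843. Plau and Plaur had r 0.894 (exact permutation p 0.0107, adjusted 0.0533) and rho 0.600 (exact permutation p 0.0968, adjusted 0.290), and r fell to 0.0837 without the 2 farthest mice, so that relation rests on them. Plau and Serpina3n ran in opposite directions, with r -0.62 (exact permutation p 0.0671, adjusted 0.201), rho -0.817 (exact permutation p 0.0108, adjusted 0.0808) and r -0.818 without the 2 farthest mice, which did not pass after adjustment. Plat and Serpina3n did so too, with r -0.879 (exact permutation p 0.00619, adjusted 0.0464), rho -0.683 (exact permutation p 0.0503, adjusted 0.252) and r -0.665 without the 2 farthest. After centring each genotype r was 0.772 for Plaur with F3, 0.858 for Plau with Plaur, -0.799 for Plau with Serpina3n and -0.920 for Plat with Serpina3n. Sets by library name hold 2 to 4 injured mice, too few for a value of their own.

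Macrophage markers moved with some of these genes. Of 10 markers 8 rose with injury in mutants (limma, adjusted p under 0.05), and none was at 0 in all libraries. In the wild type 0 passed in limma and voom called 0, while 8 had an unadjusted p under 0.05, against 4155 of 24188 genes. Over the 9 injured mice Plau followed the summed marker level, with r 0.959 (exact permutation p 7.165e-05, adjusted 0.000860 over 12 relations) and rho 0.867 (exact permutation p 0.00451, adjusted 0.0271), and r was 0.906 without the 2 farthest mice. Serpina3n ran against it, with r -0.754 (exact permutation p 0.0158, adjusted 0.0639), rho -0.817 (exact permutation p 0.0108, adjusted 0.0431) and r -0.885 without the 2 farthest mice. F3 showed no such relation, with r 0.373 (exact permutation p 0.324, adjusted 0.432) and rho 0.200 (exact permutation p 0.613, adjusted 0.736), and r was -0.719 without the 2 farthest mice. The Plaur r of 0.753 (exact permutation p 0.0215, adjusted 0.0639) with rho 0.367 (exact permutation p 0.336, adjusted 0.448) turned to -0.279 without the 2 farthest. Plat had r 0.716 (exact permutation p 0.02745, adjusted 0.0639) and rho 0.583 (exact permutation p 0.108, adjusted 0.2427), and r was 0.616 without the 2 farthest mice. The summed level of the disc cartilage markers gave the other 6 of the 12 relations. Plau ran against that sum, with r -0.708 (exact permutation p 0.0319, adjusted 0.0639), rho -0.867 (exact permutation p 0.00451, adjusted 0.0271) and r -0.565 without the 2 farthest mice. None of the other 5 genes passed after adjustment against the cartilage sum. Plaur had r -0.473 (exact permutation p 0.1401, adjusted 0.2101) and rho -0.70 (exact permutation p 0.0433, adjusted 0.130). Plat had r -0.729 (exact permutation p 0.02648, adjusted 0.0639) and rho -0.533 (exact permutation p 0.1475, adjusted 0.2427), and r was 0.105 without the 2 farthest mice. Serpina3n had r 0.722 (exact permutation p 0.0383, adjusted 0.0657) and rho 0.517 (exact permutation p 0.1618, adjusted 0.2427), and its r turned to -0.516 without the 2 farthest mice. Mice of both genotypes were permuted together and these marker relations were not centred by genotype, so a genotype difference can enter them. In bulk tissue more cells of a type and more RNA per cell cannot be told apart, and the part of macrophages or of the cartilage cells in the differences of these genes was not tested. Neutrophil markers summed to 6.53 to 18.9 TPM in intact discs, 10.5 to 191 TPM in injured wild-type discs and 19.1 to 1022 TPM in injured mutants, with the top value in mutant mouse 2. With injury in mutants 4 of 8 tested markers were higher in limma and 0 passed with voom. Their part was not tested.

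**Figure D4:**
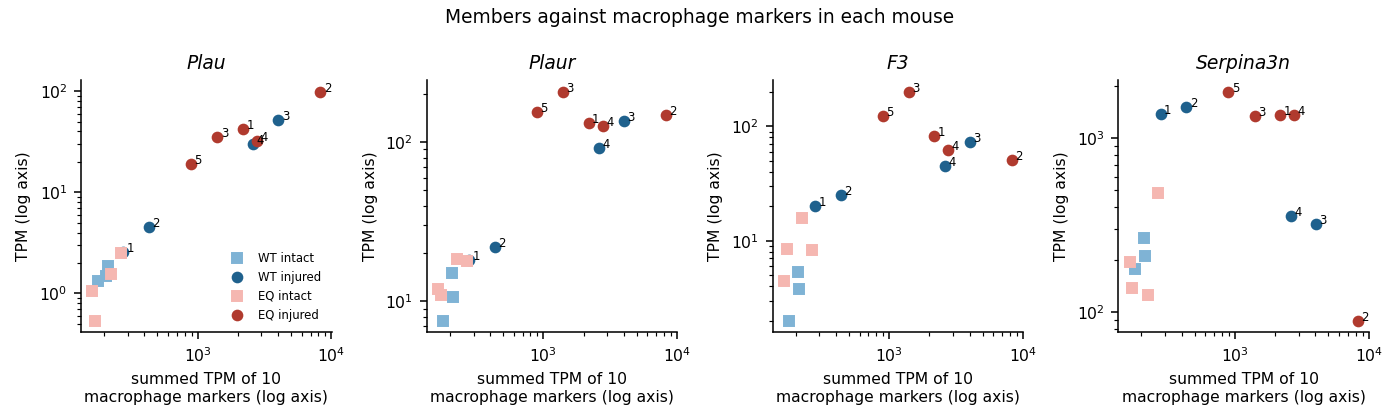
TPM of Plau, Plaur, F3 and Serpina3n against the summed TPM of 10 macrophage markers in each mouse, log axes; squares are intact and circles injured discs, and injured mice carry their number. Plau climbs with the marker sum across the injured mice, while injured mutant mouse 2, at a marker sum of 8270 TPM, is highest for Plau and lowest for Serpina3n.

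The rest of the pathway gave context. Plasminogen itself (Plg), made mainly by the liver, lay between 0.222 and 2.36 TPM in all libraries and was not tested. Serpinf2, the plasmin inhibitor antiplasmin, was listed at 0 in 10 libraries and reached 0.413 TPM at most. Of 59 further serpins analysed here 29 were tested, and in mutants 11 of them were lower, against 17.7% of all tested genes, and 18 did not pass. The median log2 difference was -0.15 against -0.08 over all tested genes, and -0.44 without 5 serpins that reached 1 TPM in injured discs only. Leaving out such genes lowers a median by itself, and the median over all genes was not taken again without them. Serpina1a, Serpina1b, Serpina1c, Serpina1d and Serpina1e, copies of the gene for alpha-1 antitrypsin, were among the 11. Serpina1a was at 231 ± 52.3 TPM in intact (SD, n = 3) and 80.5 ± 44.7 TPM in injured wild-type discs (SD, n = 4), and at 146 ± 22.9 TPM in intact (SD, n = 4) and 27.7 ± 13.2 TPM in injured mutant discs (SD, n = 5). No injured mouse reached the lowest intact value of 130.1 TPM. Lack of overlap was part of the rule for naming Serpina1a, and the share of all genes lower in this way was not counted. The log2 difference was -2.49 ± 0.45 in mutants (SE, adjusted p in limma 0.00107) and -1.69 ± 0.52 in the wild type (SE, adjusted p in limma 0.137). Serpina1b and Serpina1d differed by -2.56 ± 0.64 and -2.75 ± 0.64 in mutants (SE, adjusted p in limma 0.00539 and 0.00359). These copies may share reads, so their changes are not independent. Alpha-1 antitrypsin is best known from the liver, and the summed level of 6 hepatocyte markers was 0.0214 to 2.36 TPM over all libraries. In the wild type 0 of 29 passed in limma and 0 with voom, and 7 had an unadjusted p under 0.05, against 4155 of 24188 genes.

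Of 19 genes for plasminogen receptors and for clearance of activators and matrix, 16 were tested. In mutants 6 were higher (Itgb2, Stab1, Itgam, Lrp8, Anxa2 and S100a10) and 4 lower (Stab2, Mrc2, Pcsk6 and Sorl1), against 13.1% higher and 17.7% lower among all tested genes, with a median of -0.03 against -0.08 over all genes. In the wild type 0 passed in limma and 0 with voom, and 7 had an unadjusted p under 0.05, against 4155 of 24188 genes. Itgam and Itgb2 encode the chains of the leukocyte integrin Mac-1, which binds plasminogen and urokinase, and Stab1 a scavenger receptor of macrophages. Itgam was at 0.771 ± 0.0937 TPM in intact (SD, n = 3) and 13.1 ± 12.6 TPM in injured wild-type discs (SD, n = 4). It was at 0.659 ± 0.51 TPM in intact (SD, n = 4) and 24.3 ± 19.3 TPM in injured mutants (SD, n = 5), a log2 difference of 3.62 ± 0.73 in mutants (SE, adjusted p in limma 0.00182). Itgb2 differed by 4.60 ± 0.85 and Stab1 by 4.01 ± 0.88 in mutants (SE, adjusted p in limma 0.00115 and 0.00270). Itgam was highest in injured mutant mouse 2, at 56.4 TPM, the mouse with the highest macrophage marker sum. No relation of these 3 genes with that sum was computed, and the part of macrophages was not tested. Anxa2 and S100a10 form a cell-surface complex that binds Plat and plasminogen. Their differences in mutants were 1.013 ± 0.22 and 0.73 ± 0.24 (SE, adjusted p in limma 0.00349 and 0.0242), from intact levels of 366 ± 41.9 and 168 ± 22.4 TPM (SD, n = 4). Plgrkt, a transmembrane plasminogen receptor, was 12.3 to 21.3 TPM in intact and 10.96 to 17.9 TPM in injured discs and did not pass in mutants, at -0.26 ± 0.15 (SE, adjusted p in limma 0.217).

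Of 30 genes of coagulation and fibrin 17 were tested, and in mutants 6 were higher (F2rl2, F7, Procr, F10, Tfpi2 and F13a1) and 4 lower (Pzp, F8, F5 and Thbd), against 13.1% and 17.7% of all tested genes. F2rl2, F7, F10 and Tfpi2, which make up 4 of the 6 higher genes, and F2rl3 reached 1 TPM in injured discs only and so entered the test through the group where they were high. The median of the 17 genes was 0.40 in mutants against -0.08 over all genes, and it was -0.00086 for the 12 genes without those 5. In the wild type 0 passed in limma and 0 with voom, and 2 had an unadjusted p under 0.05, against 4155 of 24188 genes. The wild-type median was 0.64 for the 17 genes and 0.096 for the 12, against 0.0090 over all genes. The medians over all genes still include genes that reached 1 TPM in injured discs only. F2rl2, a protease-activated receptor for thrombin, was at 0.332 ± 0.35 TPM in intact (SD, n = 4) and 8.51 ± 4.36 TPM in injured mutants (SD, n = 5), a log2 difference of 2.76 ± 0.37 (SE, adjusted p in limma 0.00041). In either genotype its injured values, 1.04 TPM or more, lay above the intact values of 0.827 TPM or less. The filter favoured this separation, and lack of overlap was part of the rule for naming F2rl2. Of all tested genes 3.01% had all injured above all intact libraries. Thbd, thrombomodulin, was chosen after its values were seen because it is an anticoagulant counterpart of F3. It was lower after injury in mutants, at 206.5 ± 58.2 TPM in intact (SD, n = 4) and 69.2 ± 45.0 TPM in injured discs (SD, n = 5), a log2 difference of -1.74 ± 0.45 (SE, adjusted p in limma 0.00619). Tfpi, the inhibitor of the tissue factor complex, was at most 8.71 TPM, was listed at 0 in 2 libraries and did not pass in mutants at 0.46 ± 0.46 (SE, adjusted p in limma 0.460).

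**Figure D5:**
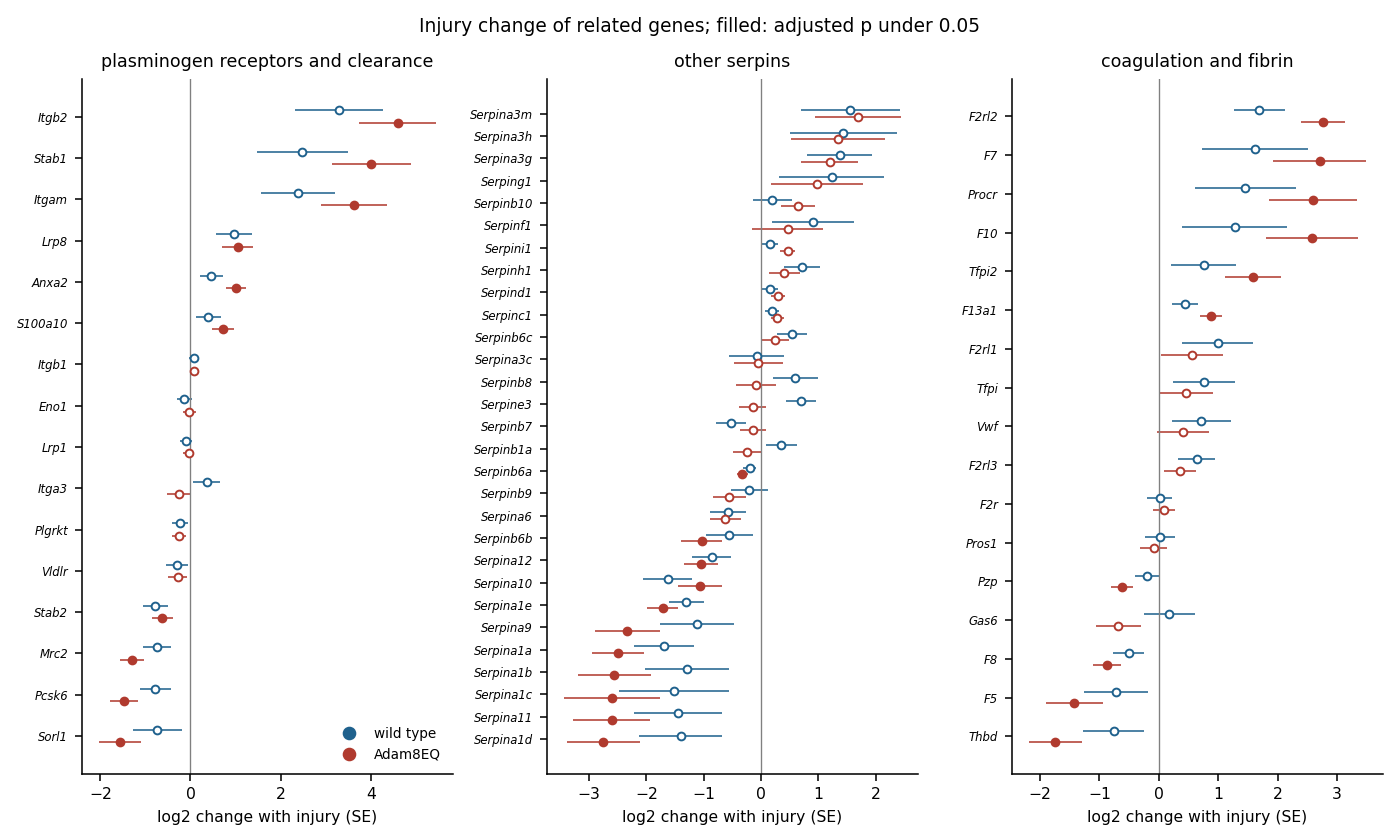
Log2 difference with injury and its standard error for the tested genes of 3 lists, wild type in blue and Adam8EQ mutants in red; filled points have a limma adjusted p under 0.05. All filled points are from mutants, and the Serpina1 copies sit at the lower end of the serpins.

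The genes most like each member over all 16 libraries were sought among 11871 genes with a mean of 5 TPM or more, as a description only, since all share the same libraries. For Plau they were Emilin2, Parvb and Adam17, with r of log2(TPM + 1) of 0.992, 0.991 and 0.990. Emilin2, an extracellular matrix glycoprotein gene, went from 3.11 to 48.0 TPM in the wild type and from 3.45 to 100.3 TPM in mutants. For Plaur they were Hmga2, Gas7 and Slc25a37 (r 0.989, 0.986 and 0.985), and for F3 Emilin1, Txn1 and Ltbp2 (r 0.967, 0.965 and 0.962). For Serpina3n the closest was its paralog Serpina3m (r 0.979), which may share reads with it, followed by Pcsk5 and Nup93 (r 0.966 and 0.955). Plat and Serpine2 had no close match, the highest r being 0.795 with Scpep1 for Plat and 0.815 with Mir99ahg for Serpine2.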

How the data were processed

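Bulk RNA-seq libraries of 16 mice were analysed from 1 table. The authors deposited TPM values, 1 column per mouse, and per the labels' protocols ribosomal RNA was depleted before library preparation, whereas the molecule field reads polyA RNA. Per the submitters' processing notes bcl2fastq 2.20 and GRCm38 were used. The aligner, counting method, annotation and use of strand are not given in the sources used here. Groups came from the sample titles.

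Genes reaching 1 TPM in 3 or more libraries entered limma 3.58.1 in R 4.3.3 (lmFit, eBayes with a trend) on log2(TPM + 1), all libraries in 1 fit with a mean per group, and p-values were adjusted by Benjamini-Hochberg over the 24188 genes of a comparison, with a threshold of 0.05. Differences averaged over genotypes weight both genotypes equally. Standard errors come from each gene's own residual spread, whereas the p-values use the spread moderated by eBayes. A difference divided by its SE is therefore not the test statistic. Tests are two-sided. Correlations used exact permutation of the injured mice, both genotypes together, in Python 3.11.15 with scipy 1.17.1. On simulated data with 200 changed genes among 24188 the mutant injury comparison recovered 89% of those with a log2 change of 2 and 58% of those with 1, with 12 false calls.

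Gene positions are those of GENCODE M21 on GRCm38, joined by identifier. Reads were implied from TPM and exon length; 94.0% to 94.9% of values under 20 reads came within 0.05 of a whole number. TPM keeps no depth of its own, so these are approximations. Promoters are from RefSeq (GRCm38.p6) and the windows searched for motifs hold 250 bases. The 7 genes, the gene lists and the tests were chosen with earlier results of these data known. Besides the 7 genes, Plg, Serpinf2, Plgrkt and Tfpi are named whatever their result, and 1 further gene of this rule is not reported here. From each list up to 3 genes are named with the largest difference averaged over genotypes among those called and without overlap in either genotype, and for each tested gene the 3 most alike. Lists of called genes and Thbd are named beyond that rule.

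As alternatives the scale (median-of-ratios, quantile), the pseudocount (0.1), the filter (none, or a mean of 5 TPM), the trend (none) and the weights of libraries were changed. Fits restricted to the compared groups, with a replicate block, with the name prefix as covariate or subset, or with 1 mouse left out were also made. Chosen after seeing the data was voom on the implied reads.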

Additional observations from a re-analysis of the deposited data

Results flagged for a closer look

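Injured mutant mouse 2 lay apart from the other 4 injured mutants in 3 of 20 gene and group combinations checked for a single distant mouse. Chance gives about 1 in 20 if values are normally distributed. The check used TPM and was not repeated on log2(TPM + 1), the scale of the tests. High values lie closer together on that scale, so the Plau and Plat flags may not hold there. Its Plau level of 98.9 TPM and its Plat level of 58.0 TPM were the highest of the group and its Serpina3n level of 88.9 TPM the lowest. The gap to the nearest mouse was 0.713, 0.753 and 0.712 of the whole range, against a critical value of 0.71, so Plau and Serpina3n passed it narrowly. The same library had the highest sums of macrophage markers (8270 TPM) and neutrophil markers (1022 TPM), whose part in these values was not tested. The 3 flags come from 1 library and are not independent.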

How the results depend on the processing

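In mutants 2 to 4 and averaged over genotypes 3 or 4 of the 6 genes passed under every alternative, and 0 passed for genotype in intact discs and for the interaction. In the wild type the count of 1 became 0 without the filter, with median-of-ratios scaling, without the trend, with only the groups compared, with the replicate block and with voom, and it ranged from 0 to 3 when mice were left out. For genotype in injured discs the count was 1 with sample weights and ranged from 0 to 3 when mice were left out. The cause was not tested. Signs turned only where the main value was small and had not passed. The Serpine2 wild-type injury difference was -0.0091 with median-of-ratios scaling, -0.0013 with the replicate block and -0.011 with voom, and -0.15 to 0.18 without single mice. With only M mutants the intact genotype difference was 0.078 for Plau, -0.11 for Plat and 0.51 for Serpina3n, and that of Plat in injured discs -0.043. Sample weights gave 0.052 for Serpine2 in intact discs and -0.031 for the Plat interaction. With only A8 mutants Serpina3n differed by -1.001 between genotypes in injured discs, and the interaction was -0.30 for Serpina3n and -0.65 for F3. The replicate block gave -0.023 for Serpina3n between genotypes in injured discs. Leaving out single mice gave -0.35 to 0.053 for Plau, -0.22 to 0.11 for Serpine2 and -0.52 to 0.13 for Serpina3n in intact discs, -0.075 to 0.39 for Plat and -0.11 to 1.07 for Serpina3n in injured discs, and interactions of -0.22 to 0.24 for Plat, -0.013 to 1.16 for Serpina3n and -0.025 to 0.59 for F3. Mouse numbers did not pair libraries: same-numbered libraries of different groups had correlations of -0.22 to 0.15, 1 of 21 over 0.1, and 3 of 15 libraries correlated best with their own number. The replicate block also ended the averaged Serpina3n call (limma adjusted p 0.0712), as did keeping only A8 mutants (limma adjusted p 0.137). With 3 to 5 mice a group, small differences could not be detected, and Serpinb2, with at most 7 implied reads, was not tested.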
